A study of Homo sapiens with 4 samples.

Results

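The genes described here encode the subunits of RNA polymerase I, RNA polymerase II and RNA polymerase III. They were found by their symbols, POLR1, POLR2 or POLR3 followed by a letter, with symbols of pseudogenes left out. The rule used no measured value and found 35 genes of the 61806 in the table, with 34 different symbols because POLR2J3 was listed under 2 gene identifiers. RNA was measured in 4 libraries of cells kept in suspension, which models a tumor cell that has lost its anchorage. JJ012 was derived from a human chondrosarcoma, a tumor of cartilage, and 143B from a human osteosarcoma, a tumor of bone. Each line gave 1 untreated control library and 1 library after 1 mM melatonin for 72 h, so a difference within a line has no replicate check and no p-value. Cell line and library cannot be told apart, nor can treatment and library. The treated columns of the table were recognised by the suffix T in their names, and every direction below rests on that reading.

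RNA polymerase I makes the precursor of the large ribosomal RNAs in the nucleolus, RNA polymerase II makes mRNA, and RNA polymerase III makes transfer RNA, the 5S ribosomal RNA and other short RNAs. The 3 enzymes are built on a common plan. The largest subunit and the next largest form the catalytic centre, some smaller subunits sit in all 3 enzymes, and each enzyme adds subunits of its own for start, pausing or release. Tumor cells depend on polymerases I and III for the ribosomes and transfer RNAs that growth needs. The libraries were made from poly(A) mRNA, so they hold the mRNA of the subunits and do not measure the ribosomal and transfer RNAs that polymerases I and III make.

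By structure, 6 of the members belong to polymerase I alone, 2 to polymerases I and III (POLR1C and POLR1D), 7 to polymerase II alone, 5 to all 3 enzymes (POLR2E, POLR2F, POLR2H, POLR2K and POLR2L) and 10 to polymerase III alone. The other 5 were kept apart. They are 4 rows for copies of POLR2J (POLR2J2, POLR2J3 in 2 rows, and POLR2J4, a pseudogene by its description) and POLR2M, whose protein, Gdown1, associates with polymerase II. A further subunit of polymerase III carries the symbol CRCP and is no member. Its FPKM (counts per exonic length and library total) were 7.08 in the JJ012 control, 8.26 in JJ012 with melatonin, 7.47 in the 143B control and 7.31 in 143B with melatonin.

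Upstream sequence is shown for the members whose values differ most between the lines or after melatonin, namely POLR3E and POLR3GL, with the largest increase and the largest decrease in JJ012, and POLR2L, which moved in opposite directions in the lines. The stretches lie within the 250 bases before the RefSeq start of the gene (GRCh38.p14), 5′ to 3′ on the strand of the gene, and were trimmed to bases outside the exons of GENCODE 29, a set of gene models. Capitals mark the letters GGGCGG on either strand, a GC box, and the B box, an internal promoter element of transfer RNA genes. The stretches are POLR3E at chr16:22297159-22297374 (plus strand), POLR3GL at chr1:145964583-145964689 (plus strand) and POLR2L at chr11:842546-842779 (minus strand). The genes themselves are listed at chr16:22297375-22335101, chr1:145964690-145978848 and chr11:837356-842529.
POLR3E: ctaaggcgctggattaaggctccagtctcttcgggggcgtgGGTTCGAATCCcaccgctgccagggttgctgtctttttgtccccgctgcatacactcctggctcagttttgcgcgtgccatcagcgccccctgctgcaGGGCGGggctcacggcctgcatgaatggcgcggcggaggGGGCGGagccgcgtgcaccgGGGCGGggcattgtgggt
POLR3GL: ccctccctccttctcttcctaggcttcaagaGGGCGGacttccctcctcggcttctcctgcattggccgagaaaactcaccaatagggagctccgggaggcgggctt
POLR2L: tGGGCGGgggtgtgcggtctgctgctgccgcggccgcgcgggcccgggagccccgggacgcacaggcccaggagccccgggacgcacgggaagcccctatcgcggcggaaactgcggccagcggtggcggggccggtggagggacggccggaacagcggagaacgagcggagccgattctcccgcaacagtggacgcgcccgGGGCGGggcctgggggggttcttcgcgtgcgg
The POLR3E stretch holds 3 GC boxes and a B box. RefSeq places the transfer RNA gene TRL-AAG2-4 at chr16:22297140-22297221, so the first 63 bases printed for POLR3E belong to a gene of the kind that polymerase III transcribes. Between it and the RefSeq start of POLR3E lie 187 bases. That RefSeq start lies downstream of the gene start listed above, and the last base printed is 35 bases before it. The POLR3GL stretch holds 1 GC box and the POLR2L stretch 2. Promoters reaching from 250 bases before the start to 50 after it were found for 24 of the 34 symbols, as 30 promoters. A GC box on either strand was present in 70% of these and in 45.0% of 35116 promoters in the table, and the letters CCGGAAG, bound by ETS factors, in 36.7% against 10.3%. The E-box CACGTG was present in 13.3% against 7.26%, TATAAA in 3.33% against 11.5%, and the B box in 3.33% (POLR3E alone) against 0.185%. The B box was searched for after the transfer RNA gene had been seen. These matches are descriptions of letters and were not tested.

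In median FPKM, which is per exonic length, subunits of polymerase II alone and of all 3 enzymes were above those of polymerase I alone and polymerase III alone in the controls. In the JJ012 control the median FPKM was 17.29 for polymerase II alone, 28.28 for the subunits of all 3 enzymes, 3.75 for polymerase I alone and 3.46 for polymerase III alone. In the 143B control the same medians were 10.07, 8.09, 2.79 and 2.72. The ranges overlapped. In the 143B control the subunits of all 3 enzymes lay between 1.33 and 18.84 FPKM. Those of polymerase III alone lay between 0.51 and 27.14 FPKM. The order depends on the division by exonic length, and it was not compared without that division. The lowest subunit in the 143B control was POLR1G at 0.37 FPKM and the highest was POLR2A at 41.62 FPKM, whereas in the JJ012 control they were POLR1G at 0.93 FPKM and POLR2K at 44.69 FPKM.

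**Figure D1:**
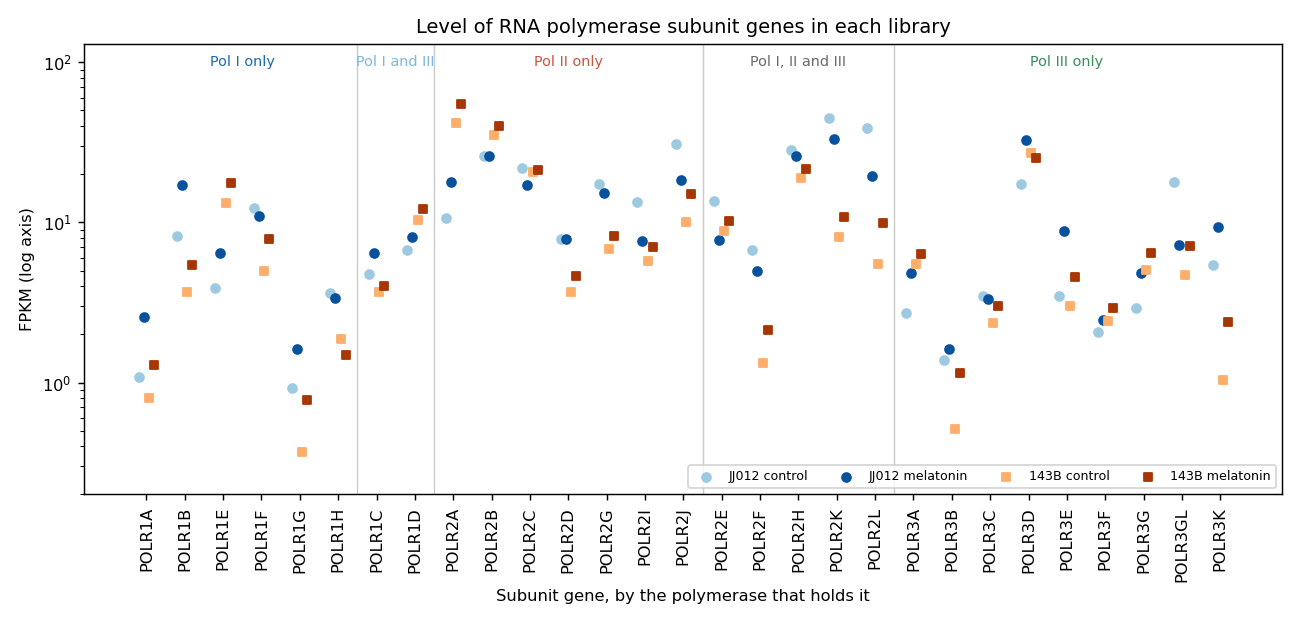
FPKM (log axis) of 29 of the 30 subunit genes in each of the 4 libraries, in order of the polymerase that holds the subunit; each point is 1 library. The shared subunits POLR2K and POLR2L lie far apart between the lines, at 44.69 and 38.96 FPKM in the JJ012 control and at 8.09 and 5.53 FPKM in the 143B control.

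The controls of the lines differed most in the shared subunits. A difference was counted from an absolute log2 fold change of 0.58 upwards, on the scale log2(FPKM + 1), and genes under 1 FPKM in both libraries of a comparison were filtered out. Of 32 members that passed this filter, 14 were higher in the JJ012 control than in the 143B control and 5 were lower. Among all genes that passed, 41.3% were higher and 27.4% lower, so the share of members that were higher, 43.8%, lay near the background. The 5 subunits of all 3 enzymes were all above 0, as were 9770 of the 16929 genes that passed. Their median log2 fold change was 1.73 against 0.29 for all genes. Between the controls, however, log2 fold changes fell with exonic length, with a Spearman rho of −0.15 over all genes and −0.55 over 29 subunit genes. With that trend removed, by the running median given further on, the median of the 5 was 1.39. POLR2H then went from 0.56 to 0.0039 and POLR2L from 2.61 to 1.77. POLR2L, a small zinc-binding subunit, was 7.04-fold higher in CPM (counts per library total, not per length) in the JJ012 control. In bulk RNA, fewer cells with a gene on and less RNA per cell cannot be told apart. The 5 members lower in the JJ012 control were POLR1E, POLR2A, POLR3A, POLR3D and POLR3G. POLR2A, the catalytic largest subunit of polymerase II, had 10.67 FPKM in the JJ012 control and 41.62 FPKM in the 143B control, and its CPM was 3.90-fold lower in JJ012.

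After melatonin, members were past the threshold in both directions in JJ012 and upwards alone in 143B. In JJ012, 33 members passed the filter, of which 10 were higher after melatonin and 5 lower, against 19.6% and 18.6% of all 15794 genes that passed. The share of members was 30.3% for higher and 15.2% for lower. The 10 that were higher were POLR1A, POLR1B and POLR1E of polymerase I, POLR2A and the associated POLR2M, and POLR3A, POLR3D, POLR3E, POLR3G and POLR3K of polymerase III. The 5 that were lower were POLR2E and POLR2L of all 3 enzymes, POLR2I and POLR2J of polymerase II, and POLR3GL of polymerase III. In 143B, 31 members passed and only POLR2L and POLR3K were higher, with 0 lower, against 6.09% and 6.65% of 14135 genes. The share of members that were higher, 6.45%, lay near that of all genes. Among protein-coding genes alone, 3.48% were higher and 2.6% lower in 143B, and 17.8% and 16.1% in JJ012. POLR3K was higher in both lines.

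A single effect over both lines was also fitted, with the line as a block and the lines as the only replicates, which left 1 residual degree of freedom (edgeR's quasi-likelihood test on the counts, added after the data were seen). No member passed an adjusted p of 0.05, 0 of 35 in either direction, against 0.0622% of 19301 genes higher and 0.29% lower. At an unadjusted p under 0.05, 4 of 35 members were higher and 0 lower, against 480 higher and 659 lower of the 19301 genes. The 4 were POLR3E, POLR1A, POLR1B and POLR3K, with log2 fold changes of 0.98, 0.95, 0.80 and 0.98. Their edgeR adjusted p-values were 0.519, 0.572, 0.838 and 0.84. Without the block 0 members passed either criterion.

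The counting error gives a finer reading than the threshold. For each gene the log2 ratio of CPM was given an exact (Clopper-Pearson) 95% interval, which covers counting error only and no variation between cultures. In JJ012 the interval lay above 0 for 14 members and below 0 for 13, against 36.9% and 35.2% of all genes. In 143B it lay above 0 for 23 of 31 members and below 0 for 1, against 28.4% and 23.5% of all genes. Among protein-coding genes alone the shares above and below 0 were 42.1% and 38.2% in JJ012, where the members lay near them, and 33.6% and 25.7% in 143B. Of the 31 members that passed in both lines, 9 had intervals above 0 in both (POLR1A, POLR1B, POLR1D, POLR1E, POLR2A, POLR3A, POLR3E, POLR3G and POLR3K) and 9 had an interval below 0 in JJ012 and above 0 in 143B, among them POLR1F, POLR2E, POLR2F, POLR2H, POLR2J, POLR2K, POLR2L and POLR3GL. Of the 11822 genes that passed in both lines, 14.2% had the first of these patterns and 10.5% the second. The direction in JJ012 turned for POLR1D with the trend with gene length removed (from 0.25 to −0.088 on the log2 scale). It turned for POLR1F in TPM, which is FPKM rescaled to 1 sum in each library (from −0.16 to 0.10). For POLR2H it turned in both, from −0.12 to 0.15 in TPM and to 0.063 with the length trend removed. POLR3D was the single member above 0 in JJ012 and below 0 in 143B.

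**Figure D2:**
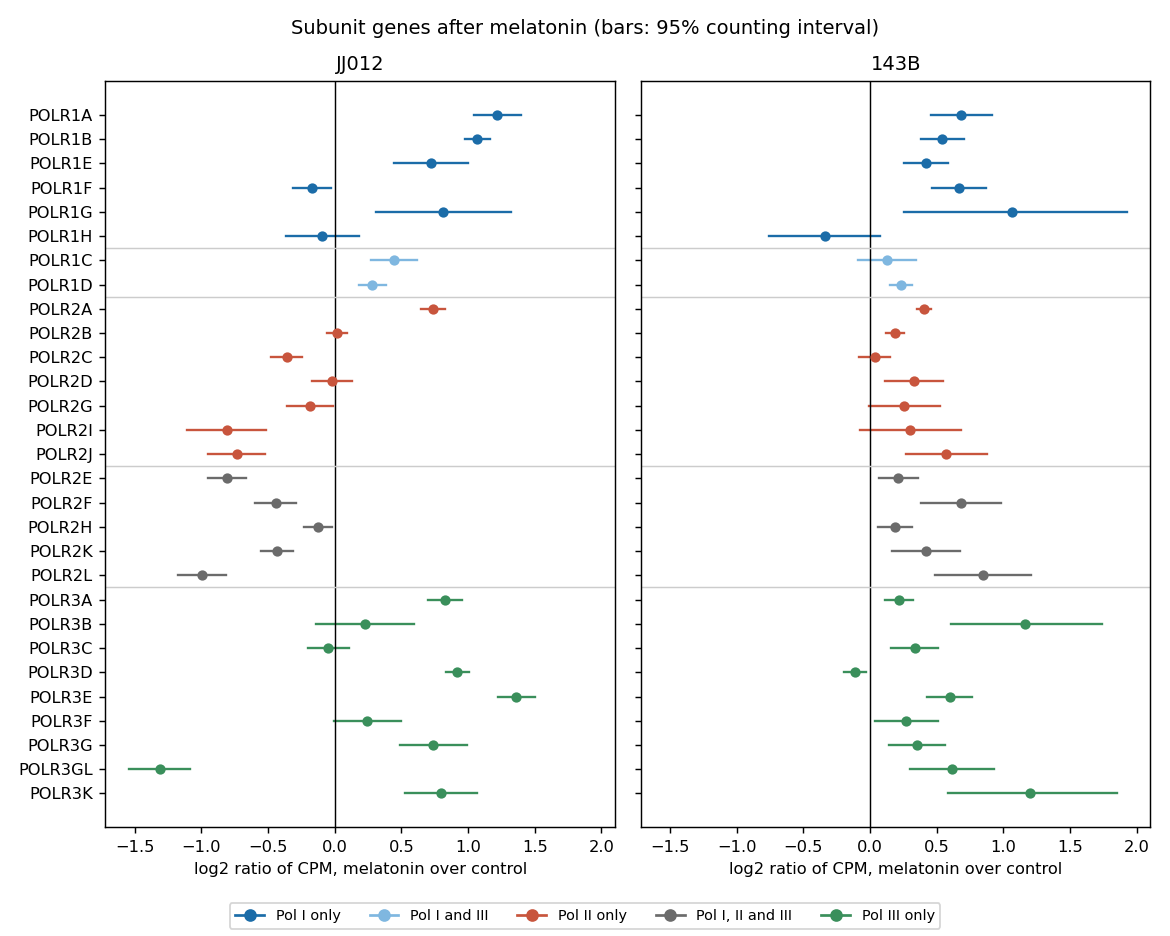
Log2 ratio of CPM, melatonin over control, for 29 of the 30 subunit genes in JJ012 (left) and 143B (right); points are the ratio of 1 library to 1 library and bars the exact 95% counting interval. The 5 subunits of all 3 enzymes lie below 0 in JJ012 and above 0 in 143B in CPM, whereas POLR2H turns to 0.15 in JJ012 in TPM.

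Class by class, the median log2 fold change in JJ012 was 0.52 for polymerase I alone, 0.31 for the subunits of polymerases I and III, −0.17 for polymerase II alone, −0.42 for the subunits of all 3 enzymes and 0.37 for polymerase III alone, beside 0.0084 for all genes. In 143B the same medians were 0.39, 0.16, 0.26, 0.38 and 0.31, beside 0.026 for all genes. The polymerase I, polymerase III and shared medians kept their sign in JJ012 under each scaling tried, and in TPM, which moved the median of all genes in JJ012 by 0.20, the polymerase II median turned from −0.17 to 0.09. The classes hold few genes and overlap. In JJ012, polymerase I alone ranged from −0.16 to 0.98 and polymerase III alone from −1.20 to 1.15.

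In polymerase I the members higher in JJ012 were the catalytic core and POLR1E. POLR1A, the largest subunit, had 1.09 FPKM in the JJ012 control and 2.55 FPKM with melatonin, and 0.80 FPKM and 1.29 FPKM in 143B. Its CPM was 2.33-fold higher in JJ012 (log2 ratio 1.22, 95% interval 1.05 to 1.39) and 1.60-fold higher in 143B (log2 ratio 0.68, 0.45 to 0.91). POLR1B, the second largest subunit, had 8.18 FPKM and 17.17 FPKM in JJ012, and 3.70 FPKM and 5.39 FPKM in 143B. The 2 core subunits were therefore higher after melatonin in each line, by more than counting error, and past the threshold in JJ012 only; whether the lines differ was not tested. POLR1E, which with POLR1G forms a pair that resembles general initiation factors of polymerase II, had 3.89 FPKM and 6.42 FPKM in JJ012, and 13.15 FPKM and 17.58 FPKM in 143B. POLR1G was counted 57 and 84 times in JJ012 and 19 and 43 times in 143B, where it stayed below the filter at 0.37 FPKM and 0.78 FPKM. Its CPM was 1.75-fold higher in JJ012 (log2 ratio 0.81, 0.31 to 1.32) and 2.10-fold higher in 143B (log2 ratio 1.07, 0.26 to 1.93). On the FPKM + 1 scale it was at 0.45 in JJ012, under the threshold. POLR1F, the subunit that docks the initiation factor RRN3, was at −0.16 on the log2 scale in JJ012 and at 0.57 in 143B. POLR1H, a zinc-ribbon subunit for cleavage of the transcript, had intervals that included 0 in both lines. POLR1C and POLR1D, the assembly pair of polymerases I and III, had log2 fold changes of 0.38 and 0.25 in JJ012 and of 0.098 and 0.21 in 143B.

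In polymerase II the largest subunit was higher in JJ012, and 2 of the smaller ones were lower. POLR2A, whose C-terminal repeats carry the phosphorylation that couples transcription to RNA processing, had 10.67 FPKM in the JJ012 control and 17.82 FPKM with melatonin, and 41.62 FPKM and 55.08 FPKM in 143B. Its CPM was 1.67-fold higher in JJ012 (log2 ratio 0.74, 0.65 to 0.83) and 1.32-fold higher in 143B (log2 ratio 0.40, 0.35 to 0.45). POLR2B, the other catalytic subunit, had 25.82 FPKM and 26.14 FPKM in JJ012, and 35.01 FPKM and 39.83 FPKM in 143B. In FPKM the ratio of POLR2A to POLR2B was thus 0.41 in the JJ012 control, 0.68 in JJ012 with melatonin, 1.19 in the 143B control and 1.38 in 143B with melatonin. POLR2I, which acts in transcript cleavage and fidelity, had 13.45 FPKM and 7.68 FPKM in JJ012, and 5.70 FPKM and 7.02 FPKM in 143B. POLR2J, which pairs with POLR2C early in assembly, had 30.82 FPKM and 18.51 FPKM in JJ012, and 10.07 FPKM and 14.98 FPKM in 143B. Both were lower after melatonin in JJ012, and in 143B the interval of POLR2I included 0 while that of POLR2J lay above it. The remaining subunits of polymerase II alone, POLR2C, POLR2D and POLR2G, ranged from −0.34 to −0.016 in JJ012 and from 0.032 to 0.26 in 143B. POLR2D and POLR2G form the stalk of the enzyme.

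POLR2M and the copies of POLR2J were read with more caution, because they share sequence with other genes. POLR2M, a protein that makes polymerase II dependent on the Mediator complex, had 6.99 FPKM and 11.98 FPKM in JJ012, and 6.24 FPKM and 6.37 FPKM in 143B. Of its exonic windows of 100 bases, 17.2% occur also in other genes, GCOM1 and POLR2MP1. The share was 25.6% for POLR2J, 93.7% for POLR2J2, 71.6% and 30.2% for the 2 rows of POLR2J3 and 31.6% for POLR2J4. POLR2J2 was counted 19 and 8 times in JJ012 and 17 and 13 times in 143B, below the filter throughout. The longer row of POLR2J3 was counted 5 and 8 times in JJ012 and 29 and 44 times in 143B, also below the filter. The shorter row, at 0.70 FPKM and 1.48 FPKM in JJ012 and 1.48 FPKM and 1.42 FPKM in 143B, passed in both lines and stayed under the threshold. POLR2J4 had 1.29 FPKM and 0.72 FPKM in JJ012 and was below the filter in 143B, with 61 and 59 counts.

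The subunits of all 3 enzymes shared a direction within each line in CPM, where all 5 intervals lay below 0 in JJ012 and all 5 above 0 in 143B. In JJ012 this depended on the scale for POLR2H, at 0.15 in TPM and 0.063 with the length trend removed, and POLR2K was at −0.075 with that trend removed. POLR2E, which contacts the DNA ahead of the active centre, had 13.52 FPKM and 7.73 FPKM in JJ012, and 8.87 FPKM and 10.25 FPKM in 143B. POLR2L, part of the platform on which the enzymes assemble, had 38.96 FPKM and 19.58 FPKM in JJ012, and 5.53 FPKM and 9.93 FPKM in 143B. Its CPM was 1.99-fold lower in JJ012 (log2 ratio −0.99, −1.17 to −0.81) and 1.80-fold higher in 143B (log2 ratio 0.84, 0.49 to 1.21), the single member past the threshold in opposite directions. POLR2L overlaps CD151 on the opposite strand, which was counted up to 6130 times in a library, and since the strand setting of the counting was not given, reads of the overlap cannot be told apart. The same holds for POLR2E, POLR2I, POLR2J, POLR1G and POLR1C, which overlap ARHGAP45, TBCB, LRWD1, ERCC1 and YIPF3 on the opposite strand, counted up to 543, 1339, 669, 1432 and 2669 times. It holds as well for POLR2B, POLR2C, POLR3C, POLR3F, POLR3G and POLR1H, among others. These overlap IGFBP7, DOK4, RNF115, DZANK1, MBLAC2 and ZNRD1ASP, counted up to 2160, 1059, 1136, 241, 313 and 241 times. POLR2F, POLR2H and POLR2K, the other shared subunits, had log2 fold changes of −0.38, −0.12 and −0.42 in JJ012 and of 0.43, 0.18 and 0.38 in 143B. The comparison of the controls and that of melatonin in JJ012 share the JJ012 control library, so the high levels there and the decreases after melatonin do not rest on separate measurements.

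Polymerase III held the largest increase and the largest decrease among the members in JJ012. POLR3E, which with POLR3D forms a dimer on the flank of the enzyme and lies beside the transfer RNA gene shown above, had 3.46 FPKM in the JJ012 control and 8.89 FPKM with melatonin, and 3.01 FPKM and 4.55 FPKM in 143B. Its CPM was 2.57-fold higher in JJ012 (log2 ratio 1.36, 1.23 to 1.50) and 1.51-fold higher in 143B (log2 ratio 0.60, 0.42 to 0.77). POLR3D had 17.38 FPKM and 32.89 FPKM in JJ012, and 27.14 FPKM and 25.09 FPKM in 143B. The partners were thus both higher in JJ012, whereas in 143B the interval of POLR3E lay above 0 and that of POLR3D below it. POLR3K, which takes part in cleavage and termination, had 5.40 FPKM and 9.38 FPKM in JJ012, and 1.04 FPKM and 2.40 FPKM in 143B, where it rested on 31 and 77 counts. It was the only member higher in both lines past the threshold.

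Of the catalytic subunits of polymerase III, POLR3A was past the threshold in JJ012 and POLR3B was not. POLR3A, the largest, had 2.71 FPKM and 4.81 FPKM in JJ012, and 5.49 FPKM and 6.38 FPKM in 143B. POLR3B had 1.38 FPKM and 1.61 FPKM in JJ012, with an interval of the ratio that included 0, and 0.51 FPKM and 1.15 FPKM in 143B, from 39 and 94 counts. In 143B the CPM of POLR3B was 2.23-fold higher (log2 ratio 1.16, 0.60 to 1.74), although its log2 fold change on the FPKM + 1 scale was 0.51, a scale that understates changes of low genes. POLR3C and POLR3F, which belong to the trimer that opens the promoter, had log2 fold changes of −0.036 and 0.17 in JJ012 and of 0.24 and 0.20 in 143B.

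The third member of that trimer exists in alternative forms, POLR3G, known from stem cells and tumor cells, and POLR3GL, known from differentiated tissues. POLR3G had 2.90 FPKM in the JJ012 control and 4.83 FPKM with melatonin, and 5.05 FPKM and 6.46 FPKM in 143B. POLR3GL had 17.93 FPKM and 7.22 FPKM in JJ012, and 4.69 FPKM and 7.17 FPKM in 143B. In JJ012 the CPM of POLR3GL was 2.48-fold lower (log2 ratio −1.31, −1.54 to −1.09) and that of POLR3G 1.67-fold higher (log2 ratio 0.74, 0.49 to 0.99), whereas in 143B both intervals lay above 0, with log2 fold changes of 0.52 for POLR3GL and 0.30 for POLR3G, under the threshold. Per length, POLR3G made up 13.9% of the pair in the JJ012 control (95% interval 12.1 to 15.9, exact binomial on the counts) and 40.1% with melatonin (35.9 to 44.5). In 143B its share was 51.8% (46.8 to 57.0) in the control and 47.4% (43.3 to 51.5) with melatonin. The share in the JJ012 control thus lay outside the intervals of the other libraries, and the intervals of the 143B libraries overlapped. As a share of counts, not per length, POLR3G made up 26.4% and 59.8% in JJ012 and 70.5% and 66.7% in 143B. The FPKM of the pair summed to 20.83, 12.05, 9.74 and 13.63 in the same order. The log2 fold change of POLR3G in JJ012, 0.58, lay on the threshold and was 0.55 with size factors. With the length trend described further on removed, it was 0.63, and that of POLR3GL went from −1.20 to −0.87. The shares of the pair were not adjusted for that trend. POLR3G overlaps MBLAC2 on the opposite strand, so its counts and share carry the strand limit given for POLR2L.

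**Figure D3:**
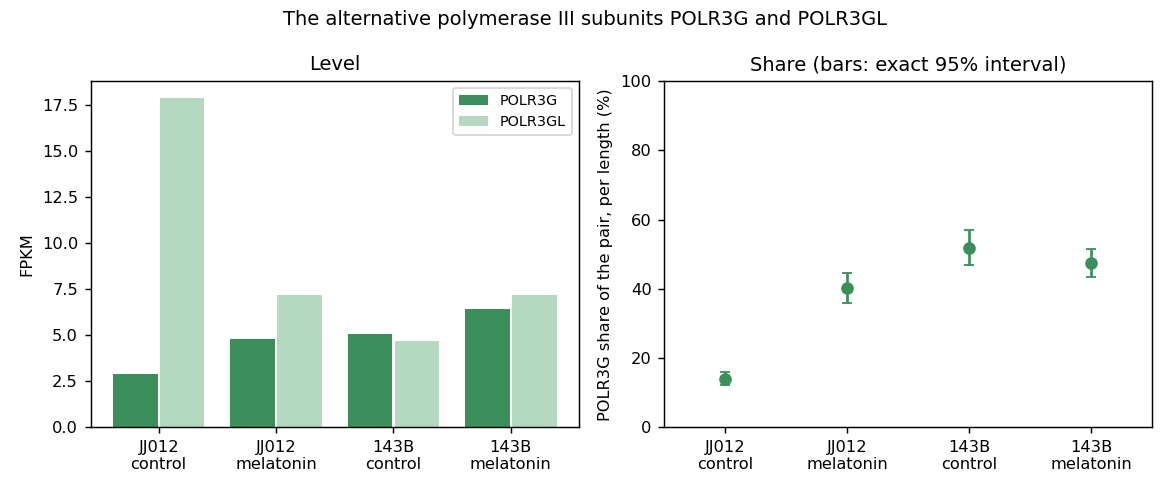
FPKM of POLR3G and POLR3GL in each library (left) and POLR3G as a percentage of the pair per length, with exact 95% counting intervals (right). The JJ012 control, at 13.9%, lies below the other libraries, which lie between 40.1% and 51.8%. Shares were not adjusted for the trend of change with gene length in JJ012.

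Across the 3 enzymes, the change of a member in JJ012 went with the exonic length of its gene. Of the 6 catalytic subunits (A and B of each enzyme), 4 were higher and 0 lower in JJ012, against 19.6% and 18.6% of all genes, with a median log2 fold change of 0.67, while the median of the other 24 subunits was −0.095. With the length trend removed (by the running median given further on), 1 of the 6 was higher and their median was 0.36. In 143B the medians were 0.37 and 0.26. In JJ012, however, log2 fold changes increased with exonic length over all genes, with a Spearman rho across genes of 0.24 over 15794 genes and 0.40 over protein-coding genes, and the rho over the 30 subunit genes was 0.57. In 143B the rho was −0.25 over 29 subunit genes and −0.0084 over all genes. Genes are not independent replicates and these values describe the libraries. Of the 14 subunit genes with at least 5000 exonic bases, 6 were higher and 0 lower in JJ012, and of the 16 shorter ones 3 were higher and 5 lower. Of all genes of any length, 19.6% were higher and 18.6% lower. The medians of the longer and shorter subunit genes were 0.31 and −0.166. Those of all genes in the same length classes were 0.21 and −0.165, so the shorter subunit genes lay at the background. The part of length in the class differences was measured by subtracting the running median over exonic length. Then 6 of the 10 higher members and 3 of the 5 lower members stayed past the threshold in JJ012, namely POLR1B, POLR1E, POLR3D, POLR3E, POLR3G and POLR3K, and POLR2E, POLR2L and POLR3GL. The median was then 0.48 for polymerase I alone, −0.08 for polymerase II alone, −0.53 for the subunits of all 3 enzymes and 0.20 for polymerase III alone. POLR2A fell below the threshold, at 0.44, and POLR1A and POLR3A at 0.38 and 0.34.

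**Figure D4:**
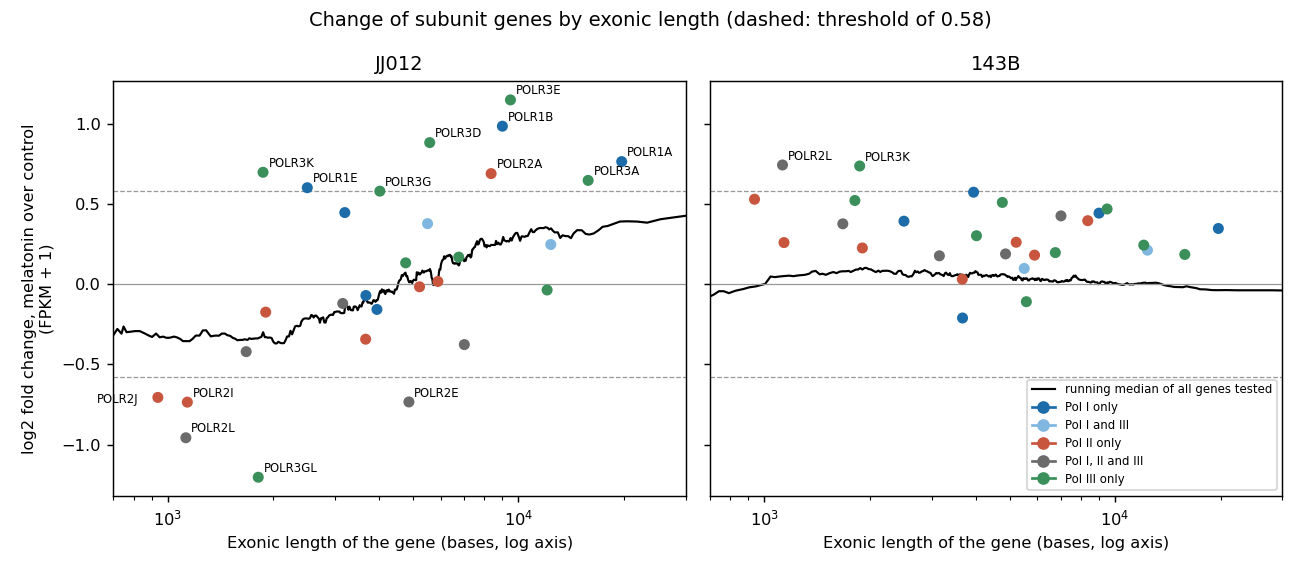
Log2 fold change (FPKM + 1) of the subunit genes shown that passed the filter against exonic length (log axis) in JJ012 and 143B; the black line is the running median of all genes tested and dashed lines mark 0.58. In JJ012 the line climbs with length. POLR3K, POLR3E, POLR1E, POLR3D, POLR1B and POLR3G lie farthest above it, and POLR3GL, POLR2E and POLR2L farthest below it. In 143B the line stays near 0.

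Factors that work with the enzymes were taken from written lists, and values past the threshold beyond the 2 largest of a list were named after they were seen. Of 7 factors of polymerase I, 4 were higher and 0 lower in JJ012, with a median log2 fold change of 0.71, and 2 were higher in 143B, with a median of −0.03, beside 19.6% of all genes higher in JJ012 and 6.09% in 143B. In JJ012 these were TAF1D, TAF1A and TAF1B of the promoter selectivity complex SL1, with log2 fold changes of 1.22, 0.94 and 0.71, and RRN3, the factor that makes polymerase I able to start, with 0.79. In 143B they were UBTF and TAF1C, both with 0.60, and UBTF, which shapes active ribosomal genes, was at −0.27 in JJ012. Of 16 factors of polymerase III, 2 were higher and 1 lower in JJ012 (median 0.27), and 1 was higher and 1 lower in 143B (median 0.13). These shares, 12.5% and 6.25% in JJ012 and 6.25% each in 143B, were below or near the 19.6% and 18.6% in JJ012 and the 6.09% and 6.65% in 143B of all genes. BDP1, part of the initiation factor TFIIIB, had 3.86 FPKM and 14.86 FPKM in JJ012, and 12.51 FPKM and 13.37 FPKM in 143B. GTF3C4 and GTF3C6 belong to TFIIIC, which reads the B box of transfer RNA genes. GTF3C4 was at 0.94 in JJ012 and 0.03 in 143B, and GTF3C6, a short gene, was lower in both lines, at −1.38 and −0.71. MAF1, the repressor of polymerase III, was at −0.26 in JJ012 and 0.63 in 143B.

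Of 31 initiation factors of polymerase II, 3 were higher in JJ012 (TAF1, GTF2H2 and TAF4) and 1 was lower (GTF2A2), with a median log2 fold change of 0.05. In 143B, 1 was higher (GTF2H4, a subunit of TFIIH) and 0 lower, with a median of 0.21. Among 17 pausing and elongation factors that passed in JJ012, CCNT1, CCNT2 and TCEA1 were higher, at 1.05, 0.78 and 0.58, and HEXIM1 was lower, at −1.04. CCNT1 and CCNT2 are cyclins of the elongation kinase P-TEFb and HEXIM1 is its inhibitor. In 143B, 0 of 18 were past the threshold in either direction (median 0.12). None of 6 assembly factors passed it in JJ012 or 143B, with medians of 0.11 and 0.27. Of the 3 genes of the mitochondrial polymerase, POLRMT was past it in JJ012, at 0.59, and was at 0.45 in 143B. Shares past the threshold among the initiation factors and the pausing and elongation factors of polymerase II were below those of all genes in each direction. In JJ012, 9.68% and 17.6% were higher, against 19.6%, and 3.23% and 5.88% were lower, against 18.6%. In 143B, 3.23% and 0% were higher, against 6.09%, and 0% of either list was lower, against 6.65%. With the length trend removed, TAF1, TAF4, GTF2A2, CCNT2 and POLRMT were under the threshold in JJ012, and TAF1C and MAF1 in 143B, while the other factors named as higher or lower stayed past it.

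Libraries held between 15889564 and 19218343 counts, which puts 3 counts between 0.156 and 0.189 CPM, and members were counted between 5 and 7899 times. Mitochondrial genes took 6.78% and 4.35% of counts in JJ012 and 1.63% and 2.46% in 143B; their part in the results was not tested. The labels of the lines were only in part met by markers. Of 9 cartilage markers, 2 (SOX9 and COL11A1) reached 1 FPKM in JJ012, where COL2A1 was at 0 and ACAN at 0.02 FPKM, and the summed level was 39.74 and 9.98 FPKM, and 1 (SOX9) did so in 143B. Of 8 bone markers, 2 reached 1 FPKM in 143B (RUNX2 and BGLAP), where IBSP was at 0 FPKM, with sums of 6.97 and 5.08 FPKM, and 4 and then 2 did so in JJ012, with sums of 107.22 and 68.34 FPKM. Of 8 markers of other cell types, 4 and 3 reached 1 FPKM in JJ012 and 3 and 3 in 143B, with sums between 12.36 and 20.98 FPKM, and the leukocyte marker PTPRC was at 0.14 FPKM or less, while CD3E, a T cell marker, was at 9.73 and 3.28 FPKM in JJ012 and at 0 in 143B.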

How the data were processed

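Poly(A) mRNA of 4 libraries was sequenced as paired reads. The deposited counts per gene were whole numbers without normalization, and the authors also deposited FPKM, which equal counts over exonic length and library total. The processing notes in the labels list cutadapt 1.9.1, HISAT2 2.2.1, HTSeq 0.6.1, DESeq2 and the build hg38. The annotation release and strand setting are not given in the sources used here. The members and lists were chosen with earlier results of these data known. The values of 1 member, which is included in the counts and medians, are not reported here.

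Log2 fold changes were log2((FPKM melatonin + 1)/(FPKM control + 1)) over genes with at least 1 FPKM in 1 of the 2 libraries, counted from 0.58, the fold threshold of the study. Exact (Clopper-Pearson) 95% intervals covered the ratio of CPM and shares of counts. Intervals and floors cover counting error only. With 1 library per group, no test was run within a line. A fit over both lines, with the line as a block, used edgeR 4.0.16 in R 4.3.3 on the counts (TMM, filterByExpr) and was added after the data were seen. Full values were given for members past 0.58, the A and B subunits, POLR3G and POLR3GL, and members below the filter. Among factors, the rule named those past 0.58 in both lines and the 2 largest changes of each direction per list. Gene types and overlaps came from GENCODE 29. Alternatives were a pseudocount of 0.1, no filter, a filter of 5 FPKM, TPM, centring, size factors, CPM, removal of the trend with exonic length (running median), a threshold of 1 and leaving out POLR2J and its copies. The procedures were tested on simulated data. Python 3.11.15, numpy 2.4.6, pandas 2.3.3, scipy 1.17.1 and matplotlib 3.10.9 were used.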

Additional observations from a re-analysis of the deposited data

Results flagged for a closer look

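POLR2L, a subunit of all 3 polymerases, moved in opposite directions past the threshold in the lines, as its log2 fold change was −0.96 with melatonin in JJ012 but 0.74 in 143B. The difference, JJ012 minus 143B, was −1.70 on the log2 scale. It compares 1 pair of libraries with another, and the difference was not tested. The JJ012 decrease was −0.71 in TPM, −0.60 after removal of the trend with length and −0.49 when that trend was taken from genes with at least 5 FPKM.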

How the results depend on the processing

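Over both lines, 0 members passed edgeR's test with the line as replicate block and 0 without it. Counts of members moved as follows. In JJ012 the 10 higher members became 1 and the 5 lower became 1 at a threshold of 1 (POLR3E and POLR3GL), and the lower became 2 in TPM. In 143B the 2 higher members became 8 with a pseudocount of 0.1, 7 in CPM, 5 in TPM, 1 with a filter of 5 FPKM and 0 at a threshold of 1. Between controls, the 5 lower members became 9 in TPM, 8 with centring, size factors or CPM, and 2 at a threshold of 1. The JJ012 median of the subunits of polymerases I and III became 0.61 in TPM and 0.10 without the length trend, and the 143B median of polymerase I alone became 0.58 in CPM. A further alternative, chosen after seeing the data, took the length trend from genes with at least 5 FPKM. With it the polymerase I and III median was −0.0043 in JJ012, the polymerase II median between controls turned from 0.93 to −0.064, and 5 of the 10 higher and 2 of the 5 lower members in JJ012 kept their call. The cause was not tested. Between controls the polymerase III median, 0.28, also turned, to −0.61 with a filter of 5 FPKM, −0.010 in TPM and −0.0083 with centring. The polymerase I and III median there turned from −0.13 to 0.0084 with the trend of genes with at least 5 FPKM. After melatonin, class medians of polymerase I alone, polymerase III alone and the shared subunits kept their sign in both lines under each alternative. In JJ012, however, polymerase III, 0.37, ranged from 0.075 with the trend of genes with at least 5 FPKM to 0.79 with a filter of 5 FPKM. The shared subunits went from −0.42 to −0.16 in TPM. TPM moved the median of all genes between controls by −0.25.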
